A study of Oryctolagus cuniculus with 12 samples.

Results

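Rabbit ear hypertrophic scar (HS) treated with drug-loaded microneedles (MNs) was compared with normal skin (NS) by bulk RNA-seq. The comparison used 6 of the 12 samples of the series, 3 labelled drug-loaded MNs and 3 labelled NS, and the groups were taken from the sample labels. It asked which part of the scar expression pattern was still present after treatment, and which genes had moved past the level of normal skin. Untreated HS and HS given 5-Fu injection, 3 samples each, were used as points of reference.

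All rabbits were WT females of 10 to 12 weeks, and full-thickness ear tissue was harvested on day 43. NS came from ears of untreated rabbits. Scars were made by skin resection on the ear, and 1 patch of drug-loaded MNs per lesion was given on days 22, 29 and 36. The needle tips were a gelatin methacryloyl hydrogel carrying a prodrug of 5-fluorouracil acetic acid (5-FuA). This is a derivative of 5-fluorouracil (5-Fu), an antimetabolite that blocks DNA synthesis. The tips were designed to release the drug where reactive oxygen species and matrix metalloproteinases are high. Patch and injection therefore did not carry the same compound. The 5-Fu injection group received 0.1 mL with 120 µg on the same days, and the HS group received nothing. Each group had 3 rabbits, but the labels do not tie a sample to a rabbit, so p-values measure the spread between these samples. No sample of a patch without drug was analysed here, so the effects of needles, gel and drug cannot be told apart.

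A hypertrophic scar is a raised scar in which dermal fibroblasts keep depositing collagen after the wound has closed. Fibrillar collagens I, III and V are secreted as procollagens, trimmed and hydroxylated, spaced by small proteoglycans such as lumican and crosslinked by lysyl oxidases. Matrix metalloproteinases cut the same matrix, while the epidermis above it renews its keratins and its cornified barrier.

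Sequencing depth was similar, with 10521472 to 11248746 reads on genes in the NS samples and 11250534 to 11924979 in the drug-loaded MNs samples. Levels are given as FPKM, the deposited unit, and differences as differences of group means in log2(FPKM + 1), which understates the change of low genes. Ear markers were present in both groups, with the epidermal keratin KRT1 at 742 to 833 FPKM in NS and 1257 to 4053 after drug-loaded MNs. The cartilage collagen COL2A1 stood at 1012 to 2248 FPKM in NS and 541 to 3738 after drug-loaded MNs, so ear cartilage was part of these samples. Since the tissue was bulk, fewer cells of a type and less RNA per cell cannot be told apart in any value that follows.

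Most genes that separated treated scar from normal skin were higher in the treated scar, and many of them encode extracellular matrix. Of 13287 genes with a mean of at least 1 FPKM over the 12 samples, 105 were called higher in drug-loaded MNs (0.790% of those tested) and 11 lower (0.0828%). A gene was called at a limma adjusted p under 0.05 and a log2 difference above 1. In all 116 called genes every treated sample lay on the same side of every NS sample, as it did above NS in 11.5% and below NS in 9.11% of the genes tested. Among the 105 higher genes the highest treated sample was replicate 1 in 51, replicate 2 in 14 and replicate 3 in 40. The calls depended on which samples were in the fit. Without NS replicate 1, 2 or 3 the higher calls were 6, 0 and 84 and the lower calls 0, 0 and 29, and without drug-loaded MNs replicate 1, 2 or 3 they were 14, 21 and 4 higher with 0, 3 and 0 lower. Without NS replicate 3, 61 of the 84 higher calls were among the 105, and 2 of the 29 lower calls were among the 11. Through the shared estimate of the spread, leaving out HS replicate 2 or 3 gave 68 or 64 higher with 1 or 2 lower, and leaving out 5-Fu injection replicate 2 gave 21 lower.

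Scaling also mattered. In the deposited FPKM the ratio of the implied library size to the reads on genes was 1.12 to 1.2 in NS and 0.959 to 1.02 in drug-loaded MNs. When FPKM was rescaled to the total of reads, the median of all genes moved by -0.19 on the log2 scale, and the calls became 66 higher and 20 lower, so that the higher genes made up 76.7% of the calls against 90.5% before. Differences below are on the deposited scale, and list medians after rescaling are given where the sign turns or the median is near 0.

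Among the called genes, most of those higher after drug-loaded MNs lay between NS and HS. By group means of log2(FPKM + 1), 91 of the 105 lay between NS and HS, 14 lay above HS, and none lay on the other side of NS from HS. Over all genes tested the shares in these positions were 49.5%, 27.2% and 23.3%. The NS samples enter both differences, so these positions are a description and carry no test. In the 91 genes the difference between drug-loaded MNs and NS was a median of 77.5% of the difference between HS and NS on the log2 scale, from 58.0% to 98.9%. These genes were selected by their difference from NS and their place between NS and HS, so a high share was favoured in advance. Every treated sample was below every HS sample in 53 of the 91. In the test of drug-loaded MNs against HS, 30 of the 91 had an unadjusted limma p under 0.05, and 1 gene of all tested was called (0.00753%). The 91 were selected with a treated mean between NS and HS, which favoured the counts of 53 and 30 in advance. The matching shares of all genes tested are not given, so neither count is read as a result. The median log2 difference from NS of the 105 genes was 1.77 after drug-loaded MNs, 2.25 in HS and 1.07 after 5-Fu injection. The genes were selected on the drug-loaded MNs value, which favours that value, so the treatments are not compared by these medians.

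The matrix genes that remained above normal skin included the main collagens of scar tissue. In 7 matrix lists with 149 distinct genes tested, 30 were called higher (20.1%, against 0.790% of all genes) and 0 lower, and 73 had an unadjusted limma p under 0.05, as had 12.9% of all genes tested. The 3 treated samples lay above the 3 NS samples in 75 of the 149 and below them in 8. The median log2 difference was 0.68 after drug-loaded MNs and 1.26 in HS, and 0.0015 over all genes tested for drug-loaded MNs. The 30 calls fell to 22 after rescaling, to 14 with no filter on low values, to 3, 0 and 18 without NS replicates 1, 2 and 3, to 19 without HS replicate 3, and to 4, 8 and 1 without drug-loaded MNs replicates 1, 2 and 3.

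Fibrillar collagens form the rope-like fibres of the dermis, and 5 of the 10 tested were called higher. Their summed share of the reads on genes was 3.26%, 1.99% and 1.94% in the NS samples, 12.7%, 11.6% and 10.4% after drug-loaded MNs, and 15.9%, 20.5% and 19.6% in HS. Every treated sample therefore lay above every NS sample and below every HS sample in this share. The cartilage collagen COL2A1 is part of this sum.

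COL1A1 and COL1A2 encode the chains of collagen I, the bulk protein of dermis and scar. COL1A1 was 896, 705 and 714 FPKM in NS and 8140, 8253 and 5776 FPKM after drug-loaded MNs, a log2 difference of 3.25 (SE 0.64, limma adjusted p = 0.0430). COL1A2 was 940, 726 and 659 FPKM in NS and 8502, 7824 and 6605 FPKM after drug-loaded MNs, a log2 difference of 3.31 (SE 0.54, limma adjusted p = 0.0232). Neither gene overlapped between the groups, and in HS both were higher still, at 12719 to 18970 FPKM for COL1A1 and 11610 to 15603 FPKM for COL1A2.

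COL3A1, the collagen of early granulation tissue, was 718, 380 and 547 FPKM in NS and 6557, 3987 and 3900 FPKM after drug-loaded MNs (log2 difference 3.14, SE 0.44, limma adjusted p = 0.0179). COL5A1, which nucleates collagen I fibrils, was 100, 57.8 and 81.6 FPKM in NS and 587, 463 and 606 FPKM after drug-loaded MNs. Its log2 difference was 2.80 (SE 0.42, limma adjusted p = 0.0201), 85.6% of that between HS and NS. COL5A2, the partner chain of COL5A1, was 58.9, 49.4 and 43.4 FPKM in NS and 405, 228 and 249 FPKM after drug-loaded MNs. At a log2 difference of 2.48 it stood at 66.1% of the difference between HS and NS, and drug-loaded MNs against HS was -1.27 (SE 0.38, limma adjusted p = 0.335). The other 5 fibrillar collagens were not called, among them COL2A1 at a log2 difference of 0.16 (SE 1.15).

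**Figure D1:**
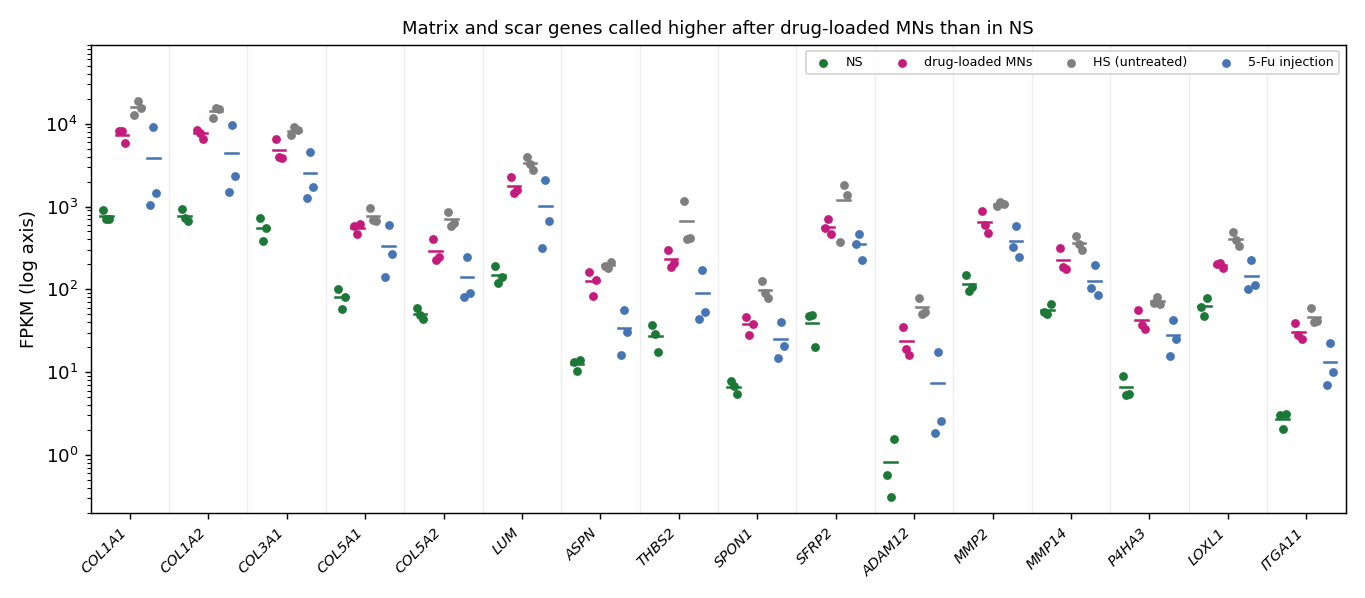
FPKM on a log axis of called extracellular matrix and related genes in the 3 NS, 3 drug-loaded MNs, 3 HS and 3 5-Fu injection samples, 1 point per sample with a bar at the group mean. The drug-loaded MNs points lie above all NS points in each gene shown, with COL1A1 at 5776 to 8253 against 705 to 896.

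Among the 24 other collagens, 4 were called higher, at a list median of 0.63. COL6A2 and COL6A3 encode chains of the beaded filaments of collagen VI and differed by 1.69 and 1.93, and COL12A1, which binds to the surface of collagen fibrils, by 1.57. COL12A1 was 33.7, 36.6 and 28.3 FPKM in NS and 110, 79.2 and 111 FPKM after drug-loaded MNs, with HS at 160 to 234 FPKM and no overlap among the 3 groups. COL10A1, a collagen of calcifying cartilage, went the other way in its means and was not called. It was 3734, 1703 and 2063 FPKM in NS and 76.9, 813 and 421 FPKM after drug-loaded MNs (log2 difference -2.98, SE 1.48, limma adjusted p = 0.430). The summed FPKM of the cartilage markers was 5195 to 10239 in NS and 1712 to 6592 after drug-loaded MNs, and the part of this spread in the COL10A1 values was not tested.

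Collagen processing enzymes gave 6 called genes of 27, all higher. P4HA3, a prolyl hydroxylase subunit needed for a stable collagen helix, was 8.90, 5.32 and 5.51 FPKM in NS and 56.5, 36.7 and 33.5 FPKM after drug-loaded MNs (log2 difference 2.51, SE 0.32, limma adjusted p = 0.0160). PCOLCE, which speeds up removal of the procollagen C-propeptide, differed by 2.22, and ADAMTS2, the protease that removes the N-propeptide, by 1.92. The collagen chaperones FKBP10 and P3H3 differed by 1.73 and 1.13. LOXL1, a lysyl oxidase that crosslinks elastin and collagen, was 61.3, 47.5 and 77.7 FPKM in NS and 203, 211 and 181 FPKM after drug-loaded MNs, a log2 difference of 1.68. LOXL1 in HS was 336 to 487 FPKM, and drug-loaded MNs against HS was -1.02 (SE 0.28, limma adjusted p = 0.310).

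Other members at high levels were not called. LOX, the enzyme that starts collagen crosslinks, was 267, 182 and 186 FPKM in NS and 195, 134 and 82.7 FPKM after drug-loaded MNs (log2 difference -0.68, SE 0.32). SERPINH1, the collagen chaperone HSP47, was 258 to 479 FPKM in NS and 523 to 700 FPKM after drug-loaded MNs, and PPIB, a proline isomerase of the endoplasmic reticulum, 489 to 558 against 709 to 911. Both had all treated samples above all NS samples at log2 differences of 0.71 and 0.62.

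Small leucine-rich proteoglycans sit on collagen fibrils and set their spacing, and 4 of 13 were called higher. LUM (lumican) was 192, 118 and 139 FPKM in NS and 2257, 1460 and 1584 FPKM after drug-loaded MNs (log2 difference 3.56, SE 0.53, limma adjusted p = 0.0201). ASPN (asporin) was 13.4, 10.3 and 13.9 FPKM in NS and 160, 82.5 and 130 FPKM after drug-loaded MNs, a log2 difference of 3.17 (SE 0.37, limma adjusted p = 0.0136). For both genes the lowest treated sample was several times the highest NS sample, and after 5-Fu injection ASPN was 16.2, 56.7 and 30.3 FPKM. BGN (biglycan) differed by 1.60 and KERA (keratocan) by 2.26. DCN (decorin) was 463 to 618 FPKM in NS and 968 to 1559 after drug-loaded MNs and was not called (log2 difference 1.2, limma adjusted p = 0.0979).

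Matricellular proteins bind matrix and cell surface without being structural, and 4 of 23 were called higher. THBS2 and THBS3 are thrombospondins, and they differed from NS by 3.05 and 2.43. THBS2 was 36.6, 28.8 and 17.3 FPKM in NS and 295, 187 and 207 FPKM after drug-loaded MNs, and THBS3 was 4.28 to 7.88 against 30.7 to 43.1. SPON1 (spondin 1) differed by 2.32 from NS and by -1.36 from HS, at 5.47 to 7.88 FPKM in NS, 28.5 to 46.2 after drug-loaded MNs and 78.5 to 126 in HS. TGFBI, a collagen-binding protein induced by TGF-beta, differed by 1.38. FN1 (fibronectin), the first matrix laid down in a wound, was 519, 299 and 430 FPKM in NS and 378, 492 and 285 FPKM after drug-loaded MNs, overlapping at a log2 difference of -0.11 (95% interval -0.78 to 0.55). CCN2, the connective tissue growth factor, had a log2 difference of 0.01. MFAP4, which binds collagen and elastic microfibrils, was the called member of the 15 elastic fibre genes, at 282 to 426 FPKM in NS, 1213 to 1306 after drug-loaded MNs and 2351 to 2849 in HS.

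Some genes of the list of matrix proteases and their inhibitors were also still high, with 6 of 37 called higher. The other 31 were not called, and the list median was 0.57. MMP2, the gelatinase whose activity the needle tips were built to respond to, was 148, 95.5 and 108 FPKM in NS and 874, 601 and 481 FPKM after drug-loaded MNs. Its log2 difference was 2.45 (SE 0.31, limma adjusted p = 0.0160), with HS at 1020 to 1118 FPKM and all 3 groups apart. MMP14, the membrane-bound activator of MMP2, differed by 1.92, at 49.7 to 67.3 FPKM in NS and 177 to 313 after drug-loaded MNs. ADAM12, a membrane protease of activated mesenchymal cells, was 0.567, 0.311 and 1.57 FPKM in NS and 35.4, 19.1 and 16.1 FPKM after drug-loaded MNs. PRSS35, described as an inactive serine protease, was 0.433 to 1.17 FPKM in NS and 9.31 to 30.2 after drug-loaded MNs. ADAMTS5, which cuts aggrecan and versican, differed by 1.55.

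Signals that act on fibroblasts were represented by fewer calls, where 0.790% of all genes tested were called higher. A single call in a list is not read as a result about that list. Of 45 Wnt ligands, receptors and antagonists, 3 were called higher and the list median was 0.23, or 0.03 after rescaling. SFRP2, a secreted Wnt modulator, was 47.9, 48.7 and 20.2 FPKM in NS and 544, 701 and 467 FPKM after drug-loaded MNs, while HS spread from 375 to 1829 and overlapped the treated samples. LGR5, a receptor for R-spondins, was 1.69, 1.15 and 1.53 FPKM in NS and 9.14, 12.7 and 15.9 FPKM after drug-loaded MNs (log2 difference 2.44, SE 0.40, limma adjusted p = 0.0232). DKK3, a member of the Dickkopf family, differed by 1.79. In the TGF-beta, activin and BMP list 1 of 43 was called, NREP, a neuronal regeneration-related protein, and the median of 0.11 turned to -0.10 after rescaling. NREP was 67.3, 35.6 and 59.3 FPKM in NS and 162, 135 and 180 FPKM after drug-loaded MNs.

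Of 17 genes of the IGF and PDGF axes, 3 were called higher, against 0.790% of all genes tested. IGF1, a growth factor for fibroblasts, was 4.23, 6.84 and 3.38 FPKM in NS, 30.6, 21.6 and 22.6 FPKM after drug-loaded MNs and 72.5, 54.0 and 68.0 FPKM in HS. Its log2 difference from NS was 2.18 (SE 0.35, limma adjusted p = 0.0232), and drug-loaded MNs against HS was -1.35 (SE 0.35, limma adjusted p = 0.280), with all 3 groups apart. IGFBP4, a binding protein that holds IGF1, differed from NS by 1.60 and PDGFRL, a PDGF receptor-like protein, by 1.76.

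Fibroblast genes with other roles were called as well. ITGA11, the integrin subunit with which fibroblasts hold collagen I, was 3.04, 2.07 and 3.15 FPKM in NS and 39.8, 27.9 and 25.2 FPKM after drug-loaded MNs, a log2 difference of 3.08 (SE 0.35, limma adjusted p = 0.0136). CDH11, a mesenchymal cadherin, was 12.6, 14.2 and 13.5 FPKM in NS and 69.6, 54.7 and 62.7 FPKM after drug-loaded MNs. These were the 2 called genes among 25 myofibroblast and contractile genes (0.790% of all genes were called higher), whose median was -0.46. The smooth muscle gene TAGLN was 359, 265 and 1414 FPKM in NS and 237, 341 and 363 FPKM after drug-loaded MNs, so the high NS replicate 3 set its mean, and its log2 difference was -0.73 (SE 0.51). ACTA2, the actin of myofibroblasts, showed the same pattern, at 181, 174 and 806 FPKM in NS and 187, 187 and 239 FPKM after drug-loaded MNs. The summed FPKM of 10 skeletal muscle markers was likewise highest in NS replicate 3, at 611 against 188 and 134, and its part in these values was not tested.

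Transcription factors followed with 2 calls of 28, against 0.790% of all genes called higher. They were PRRX2 at 1.76 and AEBP1 at 1.48, both known from mesenchymal cells. FNDC1, a fibronectin-domain protein, was 9.28, 9.36 and 9.46 FPKM in NS against 100, 98.4 and 66.3 FPKM after drug-loaded MNs. CPXM1, a carboxypeptidase-like secreted protein, was 22.3, 19.6 and 20.2 FPKM in NS and 169, 194 and 134 FPKM after drug-loaded MNs. PLA2G7, the lipase that inactivates platelet-activating factor, is listed among the macrophage genes. PLA2G7 was the called gene of 34 there, against 0.790% of all genes called higher. It was 14.1, 14.1 and 15.4 FPKM in NS, 58.6, 50.8 and 49.2 FPKM after drug-loaded MNs, 67.1 to 71.1 in HS and 33.6 to 59.2 after 5-Fu injection. PLA2G7, ITGA11 and MMP2 each kept their call in 11 of 12 fits that left out 1 library. Over the 65 called genes named by rule the number ranged from 2 to 11 with a median of 6, and it was 3 for COL1A1, COL6A2 and SOX10 and 2 for FKBP10, CRYM and MFAP4. COL1A1 also lost its call after rescaling.

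**Figure D2:**
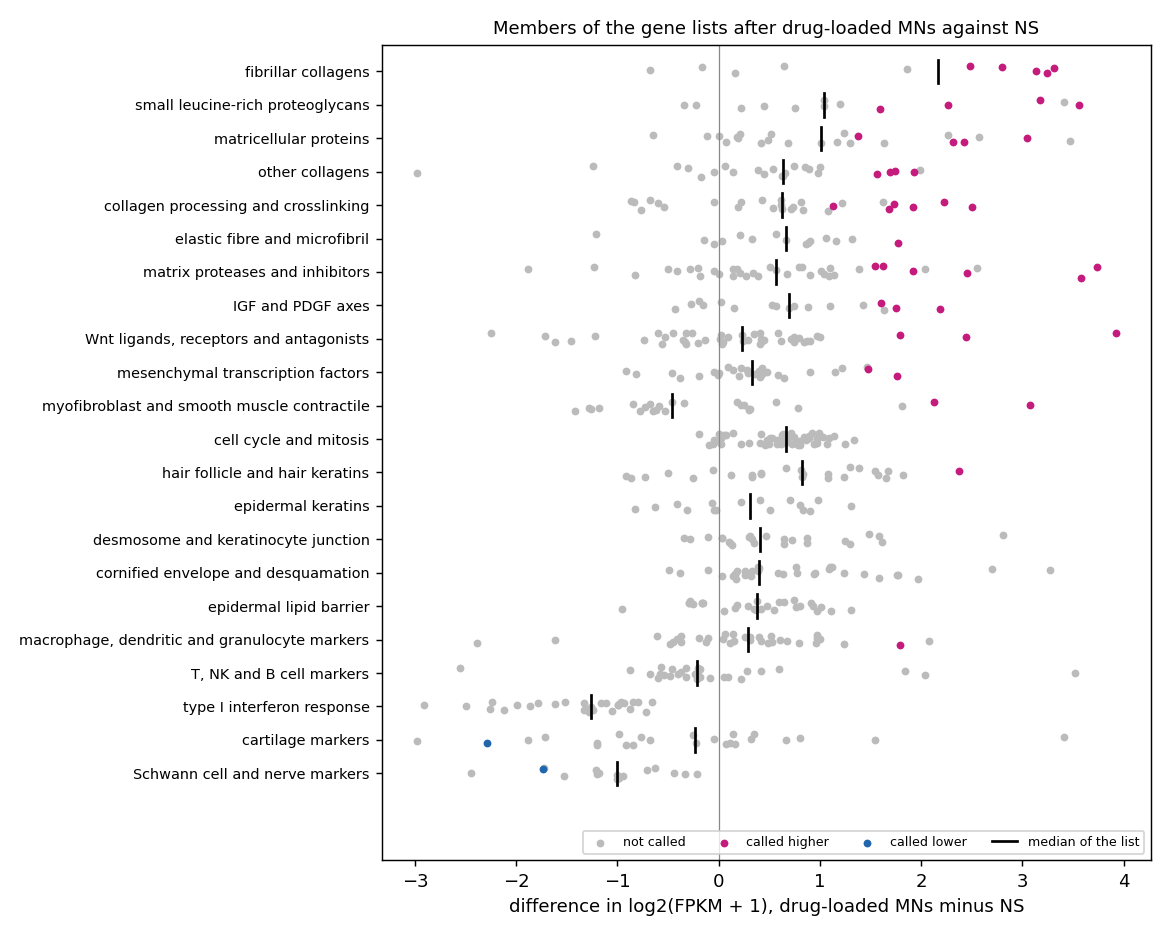
Log2 difference between drug-loaded MNs and NS for each tested member of the gene lists, 1 row per list, with called genes in colour and a black bar at the list median. The fibrillar collagens have the median farthest to the right of the lists drawn, 2.17, and the type I interferon response the one farthest to the left, -1.26.

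The 11 genes lower after drug-loaded MNs than in NS had a median log2 difference of -1.62, against -1.97 in HS and -1.38 after 5-Fu injection. They too were selected on the drug-loaded MNs value, so these medians are a description. By group means of log2(FPKM + 1), 8 lay between NS and HS and 3 lay below HS. SOX10, the transcription factor of Schwann cells and melanocytes, was 60.1, 28.9 and 30.1 FPKM in NS, 9.92, 14.5 and 8.07 FPKM after drug-loaded MNs and 8.36 to 12.4 FPKM in HS. Its log2 difference was -1.74 (SE 0.34, limma adjusted p = 0.0431), and treated scar and HS overlapped. GPR37L1, a glial receptor for prosaposin identified by its description in the table, was 13.1, 6.47 and 7.37 FPKM in NS and 1.34, 2.81 and 2.38 FPKM after drug-loaded MNs, a log2 difference of -1.62. CDH20, a cadherin, was 3.53, 3.06 and 2.36 FPKM in NS and 0.790, 0.909 and 0.809 FPKM after drug-loaded MNs.

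SOX10 belonged to a list of 22 Schwann cell and nerve markers, of which 16 were tested, and each of the 16 averaged lower in treated scar than in NS. In 11 of the 16 every treated sample was below every NS sample (9.11% of all genes), and 11 had an unadjusted limma p under 0.05 (12.9% of all genes). SOX10 was the called member, where 0.0828% of all genes tested were called lower. The list median was -1.0 after drug-loaded MNs, -1.32 in HS and -0.84 after 5-Fu injection. Their summed FPKM was 1924, 966 and 1370 in NS and 402, 607 and 484 after drug-loaded MNs. CRYAB, a small heat shock protein, was 360 to 564 FPKM in NS and 57.8 to 117 FPKM after drug-loaded MNs (log2 difference -2.45, limma adjusted p = 0.124). The melanocyte markers, which share SOX10 as a regulator, had a higher mean after drug-loaded MNs in 9 of 10, at a median of 0.35. None of them was called by limma or limma voom, and 1 had an unadjusted limma p under 0.05 (12.9% of all genes).

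Other lower genes had separate roles. CCL20, a chemokine for dendritic and Th17 cells, was 37, 20.3 and 21.1 FPKM in NS and 1.43, 7.95 and 2.87 FPKM after drug-loaded MNs. C1QL1, a secreted C1q-like protein, was 53.2, 26.5 and 32.8 FPKM in NS and 2.17, 10.1 and 4.43 FPKM after drug-loaded MNs. ANGPTL7, an angiopoietin-like secreted protein kept on the cartilage marker list, was 1430, 1125 and 1157 FPKM in NS, 277, 405 and 140 FPKM after drug-loaded MNs and 76.5 to 227 FPKM in HS. FAM107A, an actin-associated protein, fell by 2.07 on the log2 scale, TMCC2, a membrane protein, by 1.52, and ITGB8, an integrin subunit that activates latent TGF-beta, by 1.21. TGM2, the tissue transglutaminase, was 39.5, 52.2 and 52.5 FPKM in NS, 17.9, 30.1 and 19.8 FPKM after drug-loaded MNs and 25.9 to 33.3 FPKM in HS. Its log2 difference from HS was -0.42 (SE 0.20). CCL20 and GPR37L1 were the other genes counted below HS, by log2 differences of -0.06 (SE 0.42) and -0.02 (SE 0.29), both within their error.

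The 14 higher genes above the HS mean included an immunoglobulin gene and a set of short genes on chromosome 14. The Ig lambda chain C region, made by plasma cells, was 0.244, 1.38 and 2.16 FPKM in NS, 396, 42.8 and 64.1 FPKM after drug-loaded MNs, 29.0 to 94.2 in HS and 43.4 to 1027 after 5-Fu injection. Its log2 difference was 5.63 (SE 1.09, limma adjusted p = 0.0411), and treated scar and HS overlapped. The call was kept in 3 of 12 fits without 1 library, and it was lost with no filter on low values and with limma voom on reads. JCHAIN, the joining chain of IgA and IgM, moved with it at 405, 55.1 and 83.8 FPKM after drug-loaded MNs and 3.95 to 26.8 in NS, and was not called (limma adjusted p = 0.181). Drug-loaded MNs replicate 1 was the highest treated sample in both genes. Among 30 T, NK and B cell markers 0 were called, 4 had an unadjusted limma p under 0.05, a share near the 12.9% of all genes tested, limma voom called 0, and the median was -0.21.

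KRTAP6-1 and KRTAP20-1, keratin-associated proteins of the hair shaft, lie on chromosome 14 among 9 short genes of 162 to 237 bases between positions 160392729 and 160486250 as the table gives them, in a build that is not given in the sources used here. All 9 passed the filter on low values, but 8 of them had a mean under 1 FPKM over the NS, HS and 5-Fu injection samples and passed through the treated samples where they were high. This holds for 5 of the 6 that are among the 105 higher genes, so their calls are not read as support and their values are given as a description. They were looked at as a group because several of the 14 genes lay there, so the grouping was made after their values were seen. KRTAP6-1 was 1.3, 0 and 0.359 FPKM in NS, 7.02, 14.6 and 7.82 FPKM after drug-loaded MNs, 0.371 to 1.03 in HS and 0 to 3.04 after 5-Fu injection. KRTAP20-1 had 0 reads in all NS and HS samples and 1.54, 5.10 and 8.01 FPKM after drug-loaded MNs, at least 9.93-fold higher than the level of 3 reads over the NS group. In 7 of the 9 genes each treated sample lay above each sample of the other 3 groups. The filter and the grouping favoured this separation in advance, so it is not read as a result.

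Summed over the 9 genes, 10, 4 and 7 reads were counted in NS, 108, 299 and 461 after drug-loaded MNs, 8, 27 and 21 in HS and 29, 16 and 1 after 5-Fu injection. ENSOCUG00000021824, which has no symbol, was 0.342, 0 and 0.379 FPKM in NS and 9.25, 26.8 and 34.6 FPKM after drug-loaded MNs, a difference of 4.14 on the log2 scale. None of the 9 was called against HS. Genes of this kind can be near-identical copies, so reads may be divided uncertainly among them. Under limma voom on reads none of the 9 was called against NS, and a pseudocount of 0.1 left 1.

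Hair follicle genes as a list did not separate the groups. Of 26 tested, 1 was called, against 0.790% of all genes called higher. It was CRYM, a thyroid hormone-binding crystallin, at a log2 difference of 2.37, and the list median was 0.82. The summed FPKM of the list was 938, 135 and 752 in NS, 463, 1043 and 1357 after drug-loaded MNs and 232, 1603 and 2087 in HS. KRT71, a keratin of the inner root sheath, was 162, 8.60 and 164 FPKM in NS and 75.0, 205 and 295 FPKM after drug-loaded MNs. KRT25, from the same sheath, was 150, 9.66 and 149 FPKM in NS and 63.5, 208 and 268 FPKM after drug-loaded MNs. NS replicate 2 and drug-loaded MNs replicate 1 were the low samples of their groups in this sum, and drug-loaded MNs replicate 1 was also the lowest treated sample over the short genes of chromosome 14. The part of follicle content in the values of these short genes was not tested.

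**Figure D3:**
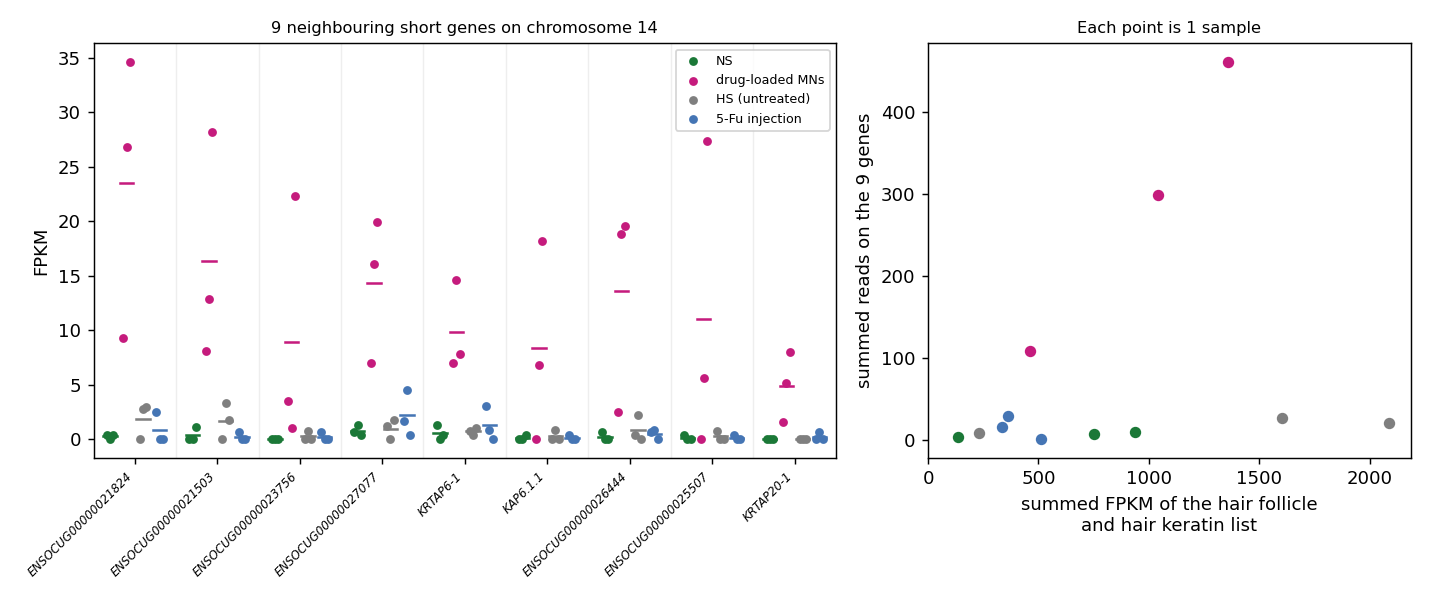
Left, FPKM of each of the 9 short genes of chromosome 14 in the 12 samples, with a bar at the group mean. Right, reads summed over the 9 genes against the summed FPKM of the hair follicle and hair keratin list, 1 point per sample, with 108 to 461 reads after drug-loaded MNs and 29 or fewer in every other sample, while the follicle sums overlap among the groups.

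Of the remaining genes above the HS mean, IL36G, MMP27 and a gene described as ribosomal protein L5 had no overlap with HS either. IL36G, an epidermal cytokine of the IL-1 family, was 11.1, 4.63 and 11.2 FPKM in NS, 27.9, 30.3 and 29.1 FPKM after drug-loaded MNs and 19.8, 12.6 and 13.2 FPKM in HS, a log2 difference from NS of 1.68 (SE 0.31, limma adjusted p = 0.0361). Drug-loaded MNs against HS was 0.92 (SE 0.31, limma adjusted p = 0.419). The IL36G call against NS was kept in 5 of 12 fits without 1 library. That call was lost after rescaling, with no filter on low values, with NS and drug-loaded MNs alone in the fit, and with a replicate block. MMP27, a matrix metalloproteinase, was 4.37, 2.13 and 3.76 FPKM in NS, 15.2, 12.0 and 10.1 FPKM after drug-loaded MNs and 6.08, 9.83 and 8.5 FPKM in HS, a log2 difference from NS of 1.62. ENTPD3, an ectonucleotidase, ALDH1A2, an enzyme that makes retinoic acid, and RGS10, a regulator of G-protein signalling, differed by 1.31, 1.55 and 1.15 from NS and overlapped HS. The last of the 14 was described as ribosomal protein L36a.

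Genes that moved past normal skin, with HS on the other side of it, were not found among the calls. At an unadjusted limma p under 0.05 in both drug-loaded MNs against NS and drug-loaded MNs against HS, 47 genes had this position, 38 above both groups and 9 below both, and 10 of the 38 were in the epidermal lists, which hold 0.783% of the genes tested. Both tests use the treated samples, so these genes are described by their values. KRT1, the first keratin of differentiating epidermis, was 833, 742 and 822 FPKM in NS, 1521, 1257 and 4053 FPKM after drug-loaded MNs and 817, 422 and 483 FPKM in HS. Its log2 difference from NS was 1.31 (SE 0.44, limma adjusted p = 0.220) and from HS 1.84 (SE 0.44, limma adjusted p = 0.239). HS against NS was -0.54 for KRT1 (SE 0.44, limma adjusted p = 0.504), and the highest HS sample lay within the NS range. KRT1 after 5-Fu injection was 1164 to 2486 FPKM, within the range of the treated samples apart from the lowest value.

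Cell adhesion and barrier genes had the same order of log2 means, but in those that follow HS differed from NS by less than the SE. The HS difference from NS ran from -0.04 (SE 0.38) for SDR9C7 to -0.45 (SE 0.51) for POF1B. DSG1, the desmosomal cadherin of upper epidermis, was 55.5, 26.7 and 76.2 FPKM in NS, 82.0, 106 and 182 FPKM after drug-loaded MNs and 38.8 to 55.7 in HS (limma adjusted p = 0.306 against NS). SPINK5, the inhibitor that restrains skin-shedding proteases, was 45.2, 24.8 and 56.6 FPKM in NS and 58.8, 83.8 and 133 FPKM after drug-loaded MNs (log2 difference 1.10, limma adjusted p = 0.181). KLK5, a protease that SPINK5 inhibits, was 9.43 to 13.4 FPKM in NS and 16.1 to 46.1 after drug-loaded MNs. KLK5 in HS was 4.33 to 18.1 FPKM and overlapped the treated samples. POF1B, an epithelial actin-binding protein, was 10.0 to 29.1 FPKM in NS against 34.0 to 50.7 after drug-loaded MNs. SDR9C7 and ABCA12 serve the ceramide barrier, the first as an oxidoreductase and the second as a lipid transporter. SDR9C7 was 4.02 to 7.32 FPKM in NS and 11.7 to 16.4 after drug-loaded MNs, and ABCA12 1.85 to 3.28 against 5.03 to 7.58. In KRT1, DSG1, SPINK5 and KLK5 the highest treated sample was replicate 3.

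Taking 4 epidermal lists with 104 distinct genes tested, 0 were called by limma and 0 by limma voom. An unadjusted limma p under 0.05 was found in 26 (12.9% of all genes tested). Calls in these lists reached 2 at most under any alternative, as with NS, HS and drug-loaded MNs alone in the fit. The mean was higher than NS after drug-loaded MNs in 83 and lower than NS in HS in 74. The treated samples lay above the NS samples in 30 of the 104 (11.5% of all genes tested) and below in 3 (9.11%). The median log2 difference was 0.39 after drug-loaded MNs and -0.40 in HS. After rescaling, the medians of the lists were 0.15 for epidermal keratins, 0.20 for desmosomes and junctions, 0.19 for the cornified envelope and 0.17 for the lipid barrier. The summed FPKM of the epidermal keratins was 6524, 4554 and 7602 in NS, 5875, 7389 and 13427 after drug-loaded MNs and 2586 to 3320 in HS, so the treated and NS samples overlapped and treated replicate 3 was highest.

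A further set of genes lay close to normal skin after drug-loaded MNs although HS differed. In HS against NS 665 genes were called (5.00%), and 31 of these had a log2 difference between drug-loaded MNs and NS within 0.25, as had 7490 of the 13287 genes tested. Of the 31, 26 were lower and 5 higher in HS, and 6 of the 26 were in the epidermal lists. Of all 196 genes called lower in HS than in NS, 8 were in these lists (4.08%). KRT2, a keratin of the upper epidermis, was 1937, 971 and 2683 FPKM in NS, 1133, 2155 and 1874 FPKM after drug-loaded MNs and 395, 499 and 444 FPKM in HS. The difference from NS was -0.05 with a 95% interval of -1.05 to 0.96, so the values do not exclude a difference within that range. The difference from HS was 1.90 (SE 0.46, limma adjusted p = 0.240). KRT15, a basal keratin that the table's description names keratin 19, was 280 to 339 FPKM in NS, 212 to 556 after drug-loaded MNs and 102 to 114 in HS.

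SERPINB8, an epidermal protease inhibitor, was 19 to 34.3 FPKM in NS, 18.6 to 32.2 after drug-loaded MNs and 5.39 to 11.2 in HS. GPX2, an epithelial glutathione peroxidase, was 32.7 to 63.8 FPKM in NS, 31.4 to 83.5 after drug-loaded MNs and 15.5 to 17.1 in HS. IFNLR1, the receptor subunit for interferon lambda, was 10.7 to 17.3 FPKM in NS, 12.8 to 16.4 after drug-loaded MNs and 3.14 to 5.22 in HS, and GRB7, a signalling adaptor, 3.42 to 5.67, 3.12 to 5.01 and 0.495 to 1.36. In each of the 4 genes the treated samples overlapped NS and lay above every HS sample. The 95% interval of the difference from NS was -0.84 to 0.76 for SERPINB8 and -0.74 to 0.36 for GRB7.

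**Figure D4:**
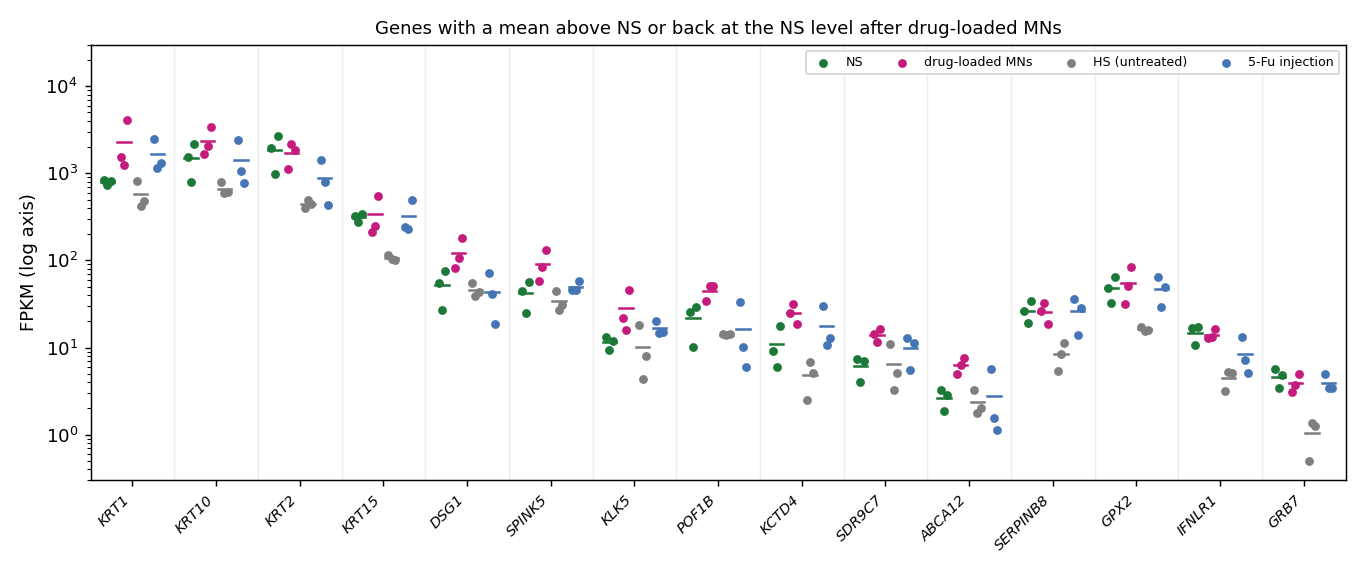
FPKM on a log axis of epidermal and other genes with a mean above NS or at the NS level after drug-loaded MNs, 1 point per sample with a bar at the group mean. KRT2 shows the treated samples at 1133 to 2155 among the NS samples at 971 to 2683, with HS at 395 to 499.

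Dividing cells were represented by 61 cell cycle genes, and 56 had a higher mean after drug-loaded MNs than in NS. None was called by limma or limma voom, 35 had an unadjusted limma p under 0.05 (12.9% of all genes tested), and the treated samples lay above the NS samples in 29 (11.5% of all genes tested). The list median was 0.66 after drug-loaded MNs, 0.58 in HS and 0.58 after 5-Fu injection, and 0.54 for drug-loaded MNs after rescaling. CCNB2, a mitotic cyclin, was 4.81, 6.40 and 6.18 FPKM in NS and 14.2, 11.8 and 24.7 FPKM after drug-loaded MNs (log2 difference 1.34, limma adjusted p = 0.124). The members with the highest levels had small differences, with PTTG1, the securin, at 0.07, the helicase subunit MCM7 at 0.03 and the sliding clamp PCNA at -0.10.

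The 29 interferon-stimulated genes tested all averaged lower in treated scar than in NS, at a median of -1.26, and none was called by limma or limma voom. An unadjusted limma p under 0.05 was reached by 7 (12.9% of all genes tested), and the groups overlapped in each of the 29. Their summed FPKM was 1343, 3791 and 282 in NS, 658, 246 and 239 after drug-loaded MNs and 205 to 319 in HS, so the NS samples spread over a wide range and NS replicate 3 was near the treated samples. MX1, an antiviral GTPase, was 173, 517 and 57.4 FPKM in NS and 96.1, 47.8 and 45.9 FPKM after drug-loaded MNs. This spread between NS replicates stands beside every comparison with NS, and its part in them was not tested.

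**Figure D5:**
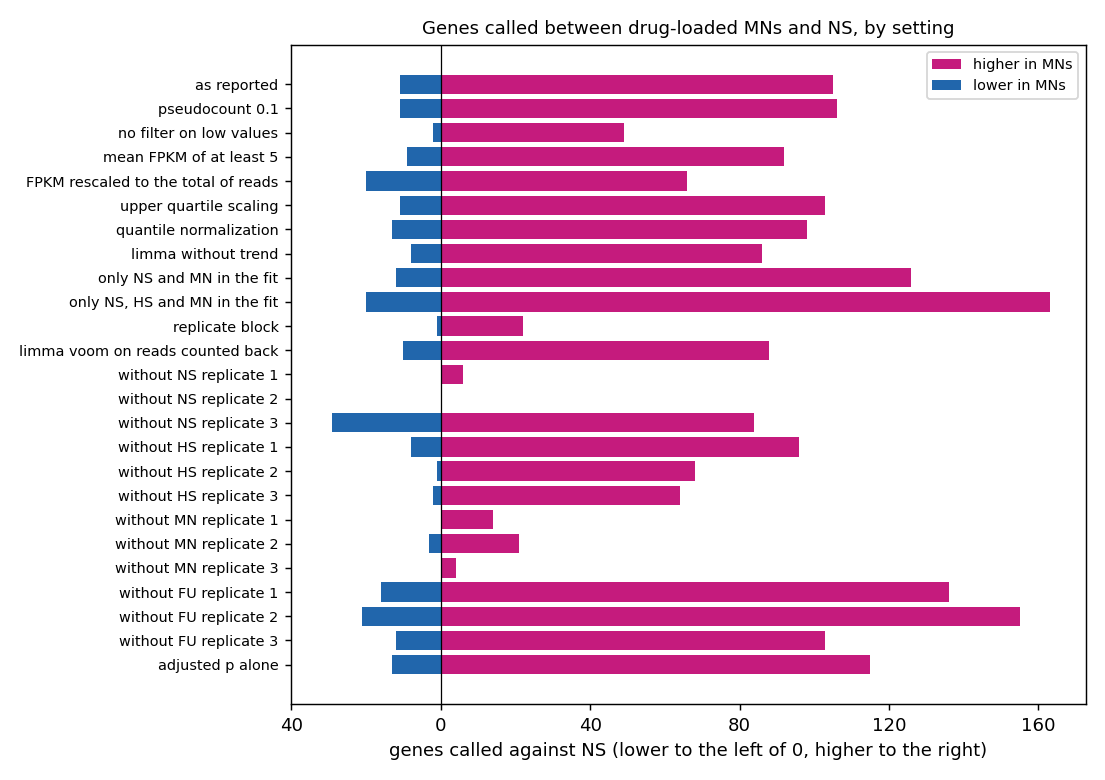
Number of genes called higher and lower after drug-loaded MNs against NS under the processing used and each alternative, including fits without 1 sample. The 105 higher and 11 lower calls go to 0 without NS replicate 2 and to 163 and 20 with NS, HS and drug-loaded MNs alone in the fit.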

How the data were processed

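The authors deposited 1 table of FPKM for 29587 genes, of which 8170 were 0 in all 12 samples. Libraries were mRNA, and the aligner, build and annotation are not given in the sources used here. FPKM times gene length were whole multiples of a step per sample in 100% of the values checked (within 0.05 of a read), so reads could be counted back. The check left out zeros and the genes with the most reads. The authors used DESeq2, which was not used here.

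The members and lists were chosen with earlier results of these data known. Genes with a mean of at least 1 FPKM were tested as log2(FPKM + 1) with limma 3.58.1 (R 4.3.3, Python 3.11.15, pandas 2.3.3), 4 groups in 1 model with a mean-variance trend and no block, two-sided, Benjamini-Hochberg over all genes. Scripts were tested on simulated data. Symbols came from the table, and 127 genes were named by description, 45 of these names having several rows, by a list made after gene names were seen. Named were the 15 largest higher and all lower calls with a symbol, called and best-expressed list members, genes past NS or HS, and genes called in HS at the NS level, with caps, not all printed. Alternatives covered pseudocount, filter, scaling, samples in the fit, replicate block, voom and leaving out each sample. One item is not reported here.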

Additional observations from a re-analysis of the deposited data

How the results depend on the processing

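All 65 called genes named above kept their direction in all 1553 values under the alternatives, while the counts of calls moved. Against 105 higher and 11 lower, no filter on low values gave 49 and 2, rescaling to the total of reads 66 and 20, and NS, HS and drug-loaded MNs alone in the fit 163 and 20. Rescaling gave 1 called gene on the other side of NS from HS, against 0. Leaving out 1 sample gave 0 to 155 higher and 0 to 29 lower. At 0 calls, without NS replicate 2, 1391 genes had an unadjusted limma p under 0.05. Apart from the replicate block, the other alternatives stayed within 1.5 times, among them limma voom on reads with 88 higher and 10 lower. The cause of these moves was not tested.

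Replicate numbers do not pair the samples. Same-numbered samples of NS and drug-loaded MNs had deviations that correlated at -0.152, -0.269 and -0.141, and a replicate block gave 22 higher and 1 lower.

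Of 287 list medians compared, 265 moved by less than the spread between replicates and 22 by more. These 287 do not cover every list under every alternative.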
